A study of Mus musculus with 6 samples.

Results

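Hypoxia-inducible factors (HIFs) and the proteins that control them were examined in mouse blood progenitors with the leukaemia fusion MLL-ENL, with and without LIN28B. The set holds 10 genes, chosen by symbol: the alpha subunits Hif1a, Epas1 and Hif3a, their partner Arnt, the asparaginyl hydroxylase Hif1an, the prolyl hydroxylases Egln1, Egln2 and Egln3, the ubiquitin ligase subunit Vhl, and Bnip3, a mitochondrial protein and known HIF target. All 10 were found among the 55471 gene IDs of the deposited table. Granulocyte-monocyte-lymphoid progenitors (GMLPs) were sorted from bone marrow by Kit, Sca1 and CD48, without lineage markers or CD150, and kept for 3 days in culture with doxycycline (DOX). The ME group came from mice of the genotype MLL-ENL and the L28BME group from mice of the genotype LIN28B*MLL-ENL, with 3 libraries each. All 6 libraries therefore carry the fusion and saw DOX, and no group lacks either. The labels used here do not state ages, the promoters of the alleles, or how the replicates of a group relate to animals and cultures. The p-values therefore reflect the spread among these 6 libraries alone, and that spread may be technical.

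In cells with enough oxygen, prolyl hydroxylases of the Egln family mark HIF alpha subunits for binding by the VHL protein, which leads to their destruction, and Hif1an hydroxylates an asparagine that blocks coactivator binding. When oxygen is short these reactions slow and the alpha subunit pairs with Arnt. The dimer binds core sequences such as ACGTG near genes of glucose use, iron handling, red cell formation and mitochondrial turnover. Most of this control acts on the protein, so the RNA levels given here do not measure HIF activity. In the marrow, HIF signalling is known for its role in stem and progenitor cells that live at low oxygen.

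L28BME cells had more Hif3a and Hif1an RNA and less Egln3 RNA than ME cells, while the groups overlapped for Hif1a, the most abundant alpha subunit RNA. Hif3a averaged 0.127 ± 0.0754 TPM in ME and rose to 4.81 ± 0.574 TPM in L28BME. Values after ± are SDs over the 3 libraries of a group throughout, and TPM is a transcript abundance per length, scaled to a fixed total per library. Hif1an rose from 20.6 ± 0.439 to 33.6 ± 0.664 TPM, and Egln3 fell from 93.8 ± 0.721 to 70.8 ± 2.05 TPM. Of the 9 members that could be tested, 2 were called higher, 1 lower and 6 not called. A call is an adjusted p under 0.05 from limma, fitted to log2(TPM + 1) of 13348 genes with Benjamini-Hochberg adjustment over all of them, and every log2 fold change below is on that scale. Over all tested genes 14.9% were called, 8.28% as higher and 6.6% as lower. Groups did not overlap for 5 of the 9 members and for 36.7% of all tested genes. Only genes that reached 1 TPM in 3 or more libraries were tested, a limit that Epas1 missed and which Hif3a met only through the L28BME libraries. The tested members had a median log2 fold change of 0.10, against 0.003 over all tested genes.

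The let-7 sequences are shown because LIN28B differs between the groups. LIN28B blocks the maturation of let-7 microRNAs, which recognise target RNAs through their seed, bases 2 to 8. All 9 mature let-7 family members in the RefSeq table for GRCm38 share the seed GAGGUAG, in capitals in these examples:
mmu-let-7a-5p: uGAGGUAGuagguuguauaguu
mmu-let-7g-5p: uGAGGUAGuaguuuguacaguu
mmu-miR-98-5p: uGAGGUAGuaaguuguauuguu
The complement of the seed, CTACCTC, was sought on the sense strand of the longest annotated 3′ UTR of each member (GENCODE M21, GRCm38). It was found in Hif3a and Hif1an and in none of the other 8. Windows of 30 bases around the matches read as follows, with the match in capitals and the position of the capitals given after each:
Hif3a: ccagccacagtcCTACCTCagccccccaac (chr7:17035736-17035742, minus strand)
Hif1an site 1: gctgttggttctCTACCTCacctcaagcct (chr19:44573368-44573374, plus strand)
Hif1an site 2: ttggtaagttccCTACCTCtgttgtctttc (chr19:44574939-44574945, plus strand)
Hif1an site 3: gtttgaaaatatCTACCTCagggttgctgg (chr19:44576177-44576183, plus strand)
In 3 of the 4 the next base is A, which makes an 8-base match. The Hif3a match lies 126 bases into a 3′ UTR of 4361 bases and is present in 2 of its 3 coding transcripts with an annotated 3′ UTR. The Hif1an matches begin at bases 2210, 3781 and 5019 of a 3′ UTR of 5116 bases.

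Both UTRs are long, and long UTRs hold the heptamer more often. Counted on the longest annotated 3′ UTR of each gene, it occurs in 10.5% of tested genes. Such UTRs of all genes were also matched by length, with a difference of at most 25% of the shorter one. The heptamer occurs in 23.8% of those matched to Hif3a and in 25.7% of those matched to Hif1an. Among all genes called higher the share was 19.7%, among genes called lower 7.81% and among genes not called 9.71%. The median 3′ UTR lengths of these classes were 1251.5, 1063 and 1151 bases, and the shares were not adjusted for length. A match is a description of the sequence, and let-7 levels or binding were not analysed here.

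**Figure D1:**
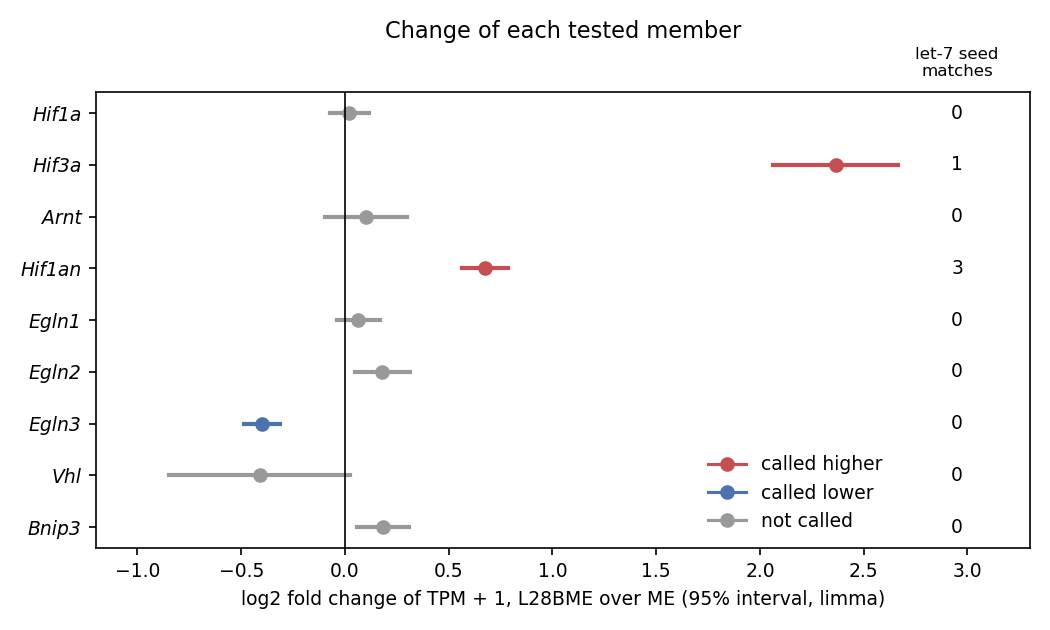
Log2 fold change of TPM + 1 between L28BME and ME (x axis) for the 9 tested members, as limma estimates with 95% intervals, coloured by call, with the number of let-7 seed matches in the longest 3′ UTR at the right. Hif3a at 2.36 and Hif1an at 0.67 are the members called higher and the ones with matches, and Egln3 at -0.40 is the one called lower.

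Among the alpha subunits, the targets of the oxygen-dependent hydroxylation, Hif1a (chr12:73901375-73947530, plus strand) was by far the most abundant. Its level was 79.3, 75.7 and 76.3 TPM in the ME libraries and 79.98, 75.8 and 78.9997 TPM in the L28BME libraries. The groups overlapped, and the log2 fold change of 0.02 had a 95% interval of -0.07 to 0.12 (limma adjusted p = 0.759). A change of the size seen for Hif1an lies outside that interval. The antisense gene Gm15283, which shares 330 exonic bases with Hif1a, was listed at 0 in 5 of the 6 libraries. Gm49321, a protein-coding model on the same strand, shares 148 exonic bases with Hif1a. It was at 0.647 TPM in L28BME replicate 1 and listed at 0 in all other libraries.

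Epas1 (chr17:86753700-86833410, plus strand), which encodes HIF-2 alpha and is best known from endothelial cells and the control of erythropoietin, was close to the bottom of the measured range. It stood at 1.87, 0.792 and 0.836 TPM in ME and at 0.667, 0.274 and 0.934 TPM in L28BME. The highest value was that of ME replicate 1, and the groups overlapped. When low genes were kept in the fit, its log2 fold change was -0.40 (SE 0.25, limma adjusted p = 0.461). Of 6 endothelial markers, Pecam1, which blood cells also express, fell from 163 ± 0.668 to 113 ± 2.45 TPM, and Flt1 was at 1.08 ± 0.249 and 0.752 ± 0.325 TPM and was not called. The other 4 were under 0.4 TPM in every library: Emcn was listed at 0 in all L28BME libraries, Cdh5 and Kdr were listed at 0 in all ME libraries (means of 0.00699 and 0.0646 TPM in L28BME), and Tek had means of 0.113 and 0.198 TPM. Their part in the Epas1 values was not tested.

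Hif3a (chr7:17031507-17062427, minus strand) encodes another alpha subunit, some of whose isoforms restrain the other alpha subunits. It was nearly silent in ME, at 0.177, 0.0406 and 0.164 TPM, and was at 4.36, 4.62 and 5.46 TPM in L28BME. Every L28BME library stood far above every ME library. On the log2(TPM + 1) scale the change was 2.36 (SE 0.12, limma adjusted p = 3.41e-04), and it was called in all fits that left out 1 library (adjusted p = 0.00302 to 0.00361). Those fits kept the genes chosen with all libraries. Had the filter been applied anew, Hif3a would not have been tested without any 1 of the L28BME libraries. The ratio of the means is 37.8, but it rests on ME values under 0.2 TPM whose depth is unknown. With a pseudocount of 0.1 the log2 change was 4.49. The files give no values per isoform.

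The 3 tested genes whose profile over the 6 libraries lay closest to that of Hif3a were Nes, Hmga2 and Hnf4a, by Euclidean distance of centred log2(TPM + 1) values (0.146, 0.320 and 0.347). Nes, which encodes the intermediate filament nestin, was at 0.258, 0.163 and 0.233 TPM in ME and 4.56, 4.64 and 5.37 TPM in L28BME. Hmga2, a chromatin protein and known let-7 target, was at 8.002, 6.78 and 7.18 TPM in ME and 44.96, 50.2 and 46.7 TPM in L28BME. Hnf4a, a nuclear receptor, was at 0.528, 0.530 and 0.368 TPM and at 6.66, 6.48 and 6.21 TPM. With 2 groups, any gene with a step of like size lies close by this measure.

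As a share of the alpha-subunit RNA, Hif1a went from 98.4 ± 0.773% in ME to 93.5 ± 0.868% in L28BME. Hif3a went from 0.161 ± 0.0937% to 5.75 ± 0.631%, and Epas1 from 1.47 ± 0.717% to 0.74 ± 0.379%. The groups did not overlap for the shares of Hif1a and Hif3a, but 3 libraries against 3 cannot go below p = 0.1 in a two-sided exact permutation test, which is the value for both (adjusted p = 0.133 over 8 quantities). The summed level of the 3 genes was 78.4 ± 2.59 TPM in ME and 83.7 ± 2.59 TPM in L28BME (exact permutation p = 0.2). Hif1a RNA thus remained above 92% of the sum in each of the 6 libraries.

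**Figure D2:**
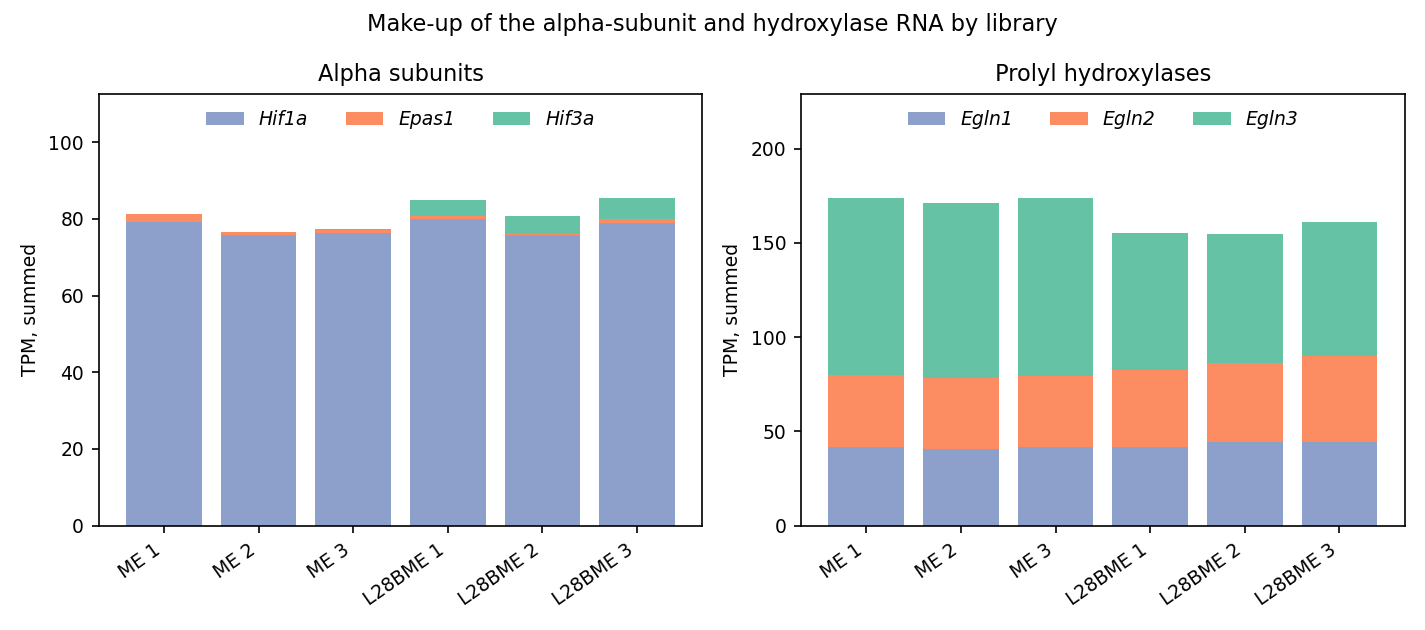
Summed TPM (y axis) of the alpha subunits (left) and the prolyl hydroxylases (right) in each of the 6 libraries, stacked by gene. Hif3a forms a visible share, 5.75% on average, only in the L28BME bars, and the hydroxylase sum of 157 TPM in L28BME is below the 173 TPM in ME.

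Arnt (chr3:95434388-95497240, plus strand), the constant beta subunit that every HIF alpha protein needs, overlapped between the groups. It was at 35.8, 39.6 and 34.9 TPM in ME and 42.5, 35.8 and 40.3 TPM in L28BME (log2 fold change 0.10, 95% interval -0.10 to 0.30, limma adjusted p = 0.464). Its paralog Arnt2 was low, with means of 0.353 ± 0.0788 TPM (ME) and 0.183 ± 0.0869 TPM (L28BME), and was not tested.

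Of the hydroxylases, Hif1an and Egln3 were called, in opposite directions. Hif1an (chr19:44562850-44576274, plus strand), also known as FIH, hydroxylates an asparagine of the alpha subunit and so blocks the recruitment of p300 and CBP. It was at 21.2, 20.4 and 20.3 TPM in ME and 34.3, 33.5 and 32.96 TPM in L28BME. The lowest L28BME library exceeded the highest ME library by more than 10 TPM, and the ratio of the mean TPM was 1.63 (log2 fold change 0.67, SE 0.046, limma adjusted p = 7.21e-04). The call was kept in all 6 fits without 1 library (adjusted p = 0.00497 to 0.00639).

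Egln3 (chr12:54178981-54203860, minus strand), the prolyl hydroxylase known to be strongly induced by HIF, was the most abundant member in ME, at 93.8, 93.0 and 94.5 TPM. It was at 72.6, 68.6 and 71.3 TPM in L28BME. The ME libraries lay within 2 TPM of each other, and all L28BME libraries were lower by about 20 TPM or more (log2 fold change -0.40, SE 0.036, limma adjusted p = 0.00166). The call was kept in all 6 fits without 1 library (adjusted p = 0.00753 to 0.0111).

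Egln1 (chr8:124908587-124949324, minus strand), the main hydroxylase for HIF-1 alpha in most cells, was at 41.5, 40.9 and 41.9 TPM in ME and 41.8, 44.1 and 44.2 TPM in L28BME (limma adjusted p = 0.367, 95% interval of the log2 fold change -0.04 to 0.17). Egln2 (chr7:27158658-27166802, minus strand), the remaining paralog, was at 38.4, 37.4 and 37.2 TPM in ME and 40.8, 42.1 and 45.7 TPM in L28BME. The Egln2 groups did not overlap, but its log2 fold change of 0.18 did not pass (limma adjusted p = 0.0818). Egln3 made up 54.2 ± 0.206% of the summed hydroxylase RNA in ME and 45.1 ± 1.46% in L28BME, and Egln2 21.8 ± 0.334% and 27.3 ± 1.04%. The sum was 173 ± 1.34 TPM in ME and 157 ± 3.65 TPM in L28BME. For all 3 of these quantities the groups did not overlap, with the smallest exact permutation p the design allows, 0.1 (adjusted p = 0.133).

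Vhl (chr6:113623959-113631633, plus strand), the substrate receptor of the ligase that destroys hydroxylated HIF alpha, was at 21.9, 23.4 and 21.9 TPM in ME. In L28BME it was at 22.5, 14.8 and 13.7 TPM, so replicate 1 lay within the ME range and the other L28BME libraries well below it. Vhl was not called (log2 fold change -0.41, SE 0.18, limma adjusted p = 0.19). Without L28BME replicate 1 it was called lower (log2 fold change -0.62, SE 0.070, adjusted p = 0.012), so that library decides the call.

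Bnip3 (chr7:138890836-138909519, minus strand), a mitochondrial outer membrane protein that promotes mitophagy and a standard HIF target, was at 48.9, 48.3 and 51.1 TPM in ME and 59.3, 53.6 and 55.96 TPM in L28BME. The groups did not overlap, but Bnip3 was not called (log2 fold change 0.18, 95% interval 0.06 to 0.31, limma adjusted p = 0.068). The antisense model Gm45507, which shares 504 exonic bases with Bnip3, was listed at 0 in all 6 libraries.

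**Figure D3:**
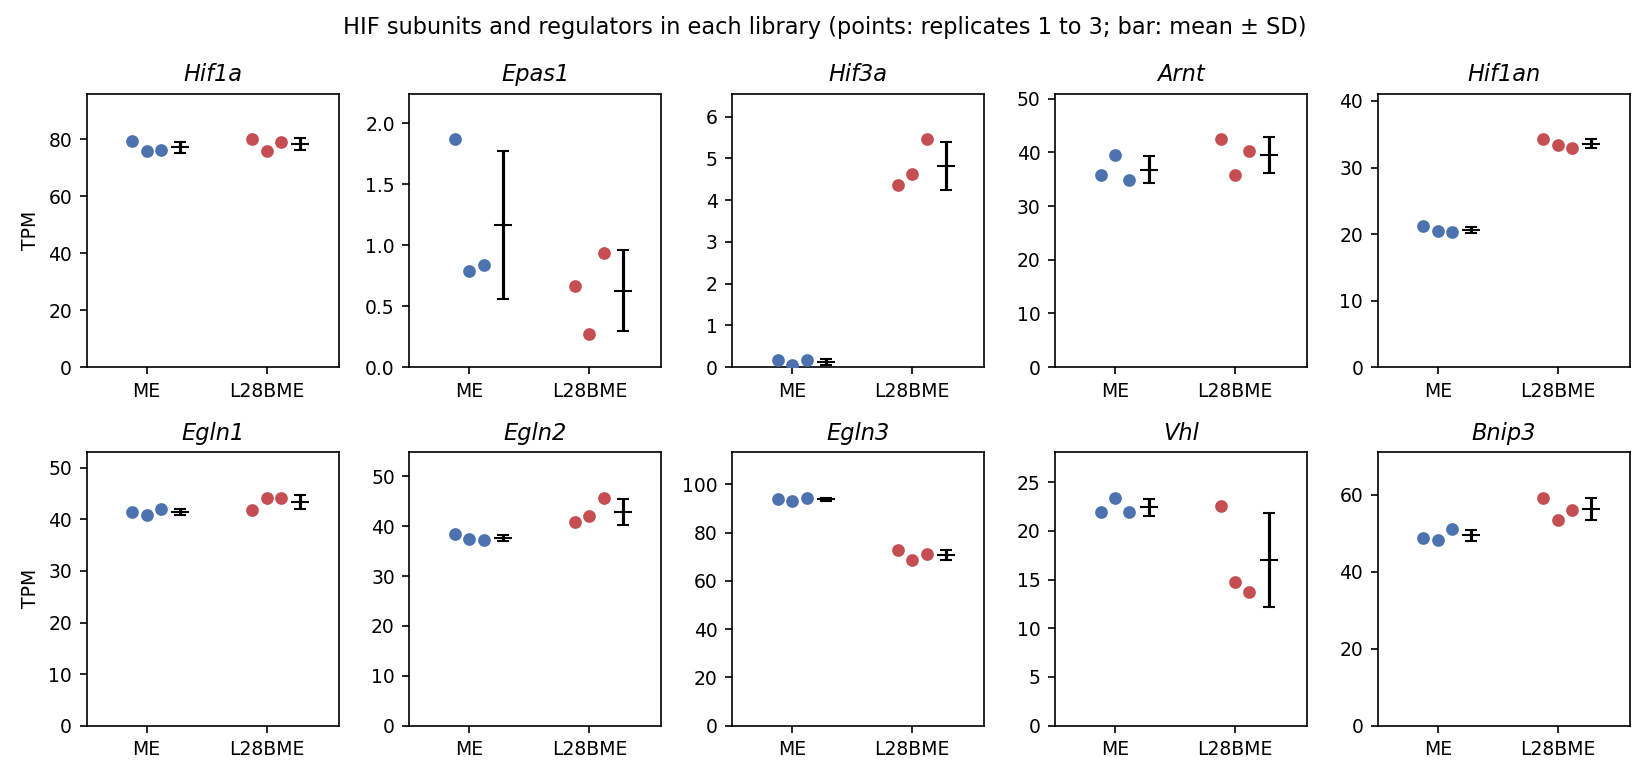
TPM (y axes, each from 0) of the 10 members in the ME and L28BME libraries, with points for replicates 1 to 3 in order and bars for mean ± SD. The groups are apart for Hif3a, Hif1an, Egln2, Egln3 and Bnip3, and the L28BME points of Vhl split into 22.5 TPM and a pair at 14.8 and 13.7 TPM.

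Ordered by level, Egln3 led in ME with 93.8 TPM, followed by Hif1a, Bnip3, Egln1, Egln2, Arnt, Vhl, Hif1an, Epas1 and Hif3a. Neighbours in that order did not overlap over the ME libraries, apart from Egln2 and Arnt. In L28BME, Hif1a led with 78.3 TPM and Egln3 came next with 70.8 TPM, without overlap. Hif1an stood above Vhl there, and Hif3a above Epas1, both the reverse of the order in ME. Egln1, Egln2 and Arnt, with means of 43.4, 42.8 and 39.5 TPM, followed each other in L28BME, and the ranges of Egln1 and Egln2 and those of Egln2 and Arnt overlapped.

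The HIF core motif was sought, in the form ACGTG alone, in the promoters of the members. The stretches of Egln3 and Bnip3, both known HIF targets, are shown because the first fell and the other was not called. RefSeq promoters (GRCm38.p6, 250 bases before to 50 after the start) were given for 9 members, all but Epas1, and 5 of these held ACGTG on either strand: Hif1a, Egln1, Egln2, Egln3 and Bnip3. Over 32851 promoters of the same length the share was 19.6%, counted per promoter and not per gene. Egln2 had 2 promoters, and the second held no match. Hif3a and Hif1an had no match in their windows. The motif is in capitals, and CACGTG holds ACGTG on both strands with an overlap of 4 bases:
Egln3: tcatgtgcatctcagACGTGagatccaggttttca (chr12:54204084-54204118, minus strand)
Bnip3: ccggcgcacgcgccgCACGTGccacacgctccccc (chr7:138909595-138909629, minus strand)
The capitals begin 229 bases before the start site in Egln3 and 108 bases before it in Bnip3. Binding was not measured, and the presence of the letters does not mark a used site.

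Of the HIF partners outside the set, most were not called. These are subunits of the VHL ligase, coactivators, chaperones and proteins that set alpha-subunit stability. Of 21 tested genes, 1 was called lower and 0 higher by limma (4.76% called, against 14.9% of all tested genes). An unadjusted limma p under 0.05 was reached by 3 in each direction, a level whose share over all tested genes was not counted. Groups did not overlap for 7 of the 21 partners, against 36.7% of all tested genes. The median log2 fold change was -0.02. The called gene was Cited4, a CITED family protein that binds p300 and CBP. It was at 9.55, 10.02 and 9.71 TPM in ME and 1.77, 2.11 and 2.10 TPM in L28BME, with no overlap (log2 fold change -1.85, SE 0.086, limma adjusted p = 2.65e-04). The ligase scaffold Cul2 was at 44.7 ± 1.74 and 50.5 ± 2.18 TPM (adjusted p = 0.0797), and the VHL-binding Elob and Eloc were not called. Among the most abundant partners, the chaperone Hsp90ab1 was at 4263 ± 74.2 and 4105 ± 106 TPM and Rack1 at 2256 ± 45.2 and 2301 ± 56.5 TPM, neither called.

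Genes of glucose uptake and glycolysis that are known HIF targets were called higher in 5 and lower in 1 of 20 tested cases. The called share was 30%, against 14.9% of all tested genes, and the median log2 fold change was 0.08. The lactate exporter Slc16a3 rose from 27.4 ± 3.50 to 36.9 ± 2.19 TPM, and the glucose transporter Slc2a1 from 36.6 ± 2.20 to 46.9 ± 2.88 TPM. Lactate dehydrogenase Ldha rose from 1677 ± 70.9 to 1893 ± 48.6 TPM, Pgk1 from 863 ± 10.3 to 945 ± 17.9 TPM and Eno1 from 852 ± 25.8 to 927 ± 14.1 TPM. Hexokinase Hk1 fell from 164 ± 3.07 to 148 ± 3.28 TPM. The most abundant members not called were Pkm, at 1504 ± 77.6 and 1399 ± 19.4 TPM, and Aldoa, at 1114 ± 18.6 and 1103 ± 47.1 TPM. These calls were small and close to the threshold (limma adjusted p = 0.0214 to 0.0478). Of the 5 genes called higher, only Slc2a1 kept its call without ME replicate 1 or L28BME replicate 1, only Slc16a3 without ME replicate 2 and only Pgk1 without L28BME replicate 3, where Slc2a3, not called with all libraries, was called as well (adjusted p = 0.0462). None of the 5 kept its call without ME replicate 3 or L28BME replicate 2, and Hk1 lost its call in all 6 such fits (adjusted p = 0.0576 to 0.0911). Pkm, not called with all libraries, was called lower without ME replicate 2 (adjusted p = 0.0445).

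Other HIF targets moved both ways, with 4 of 28 tested genes called higher and 4 lower (28.6% called, against 14.9% of all tested genes). Their median log2 fold change was 0.06. Cox4i2, a respiratory chain subunit variant induced at low oxygen, rose from 13.3 ± 1.34 to 25.3 ± 2.42 TPM (limma adjusted p = 0.00388, log2 fold change 0.88). The oxidoreductase Ero1a was at 109.96, 116 and 119 TPM in ME and at 173, 171 and 168 TPM in L28BME (log2 fold change 0.57, adjusted p = 7.35e-04). Mxi1, a MYC antagonist, rose from 28.6 ± 0.698 to 37.5 ± 0.399 TPM, and the carbonic anhydrase Car12 from 12.2 ± 1.21 to 17.1 ± 0.587 TPM.

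Ndrg1, a stress-response gene often used as a hypoxia marker, fell from 43.7 ± 2.02 to 27.1 ± 1.05 TPM (limma adjusted p = 0.00124, log2 fold change -0.67). The transferrin receptor Tfrc fell from 504 ± 1.62 to 433 ± 3.63 TPM, the repressor Bhlhe40 from 45.7 ± 0.768 to 38.01 ± 1.19 TPM and glycogen synthase Gys1 from 40.2 ± 0.737 to 34.8 ± 0.825 TPM. Vegfa, the angiogenic factor, was at 64.2 ± 6.52 and 78.5 ± 9.05 TPM (adjusted p = 0.147). Plod2, a collagen lysyl hydroxylase, was at 8.06 ± 0.745 and 5.05 ± 1.16 TPM without overlap and was just short of the threshold (log2 fold change -0.60, adjusted p = 0.050002). It was called lower without L28BME replicate 2 (adjusted p = 0.019), and in the fits with a 5 TPM filter, quantile normalization or summed overlapping models, which each gave 5 lower. Adm and Ndufa4l2 were listed at 0 in every library. The members not called with the highest mean over all 6 libraries were Mif, at 559 ± 19.7 and 541 ± 39.4 TPM, and Fam162a, at 146 ± 33.3 and 141 ± 34.5 TPM. Calls of Cox4i2, Ero1a, Mxi1, Ndrg1 and Tfrc were kept in all 6 fits without 1 library. Gys1 lost its call in each of them (adjusted p = 0.0655 to 0.0897), Bhlhe40 without ME replicate 3 (adjusted p = 0.0514), and Car12 in 4 of the 6 (without ME replicate 1 or any L28BME replicate, up to adjusted p = 0.0624).

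**Figure D4:**
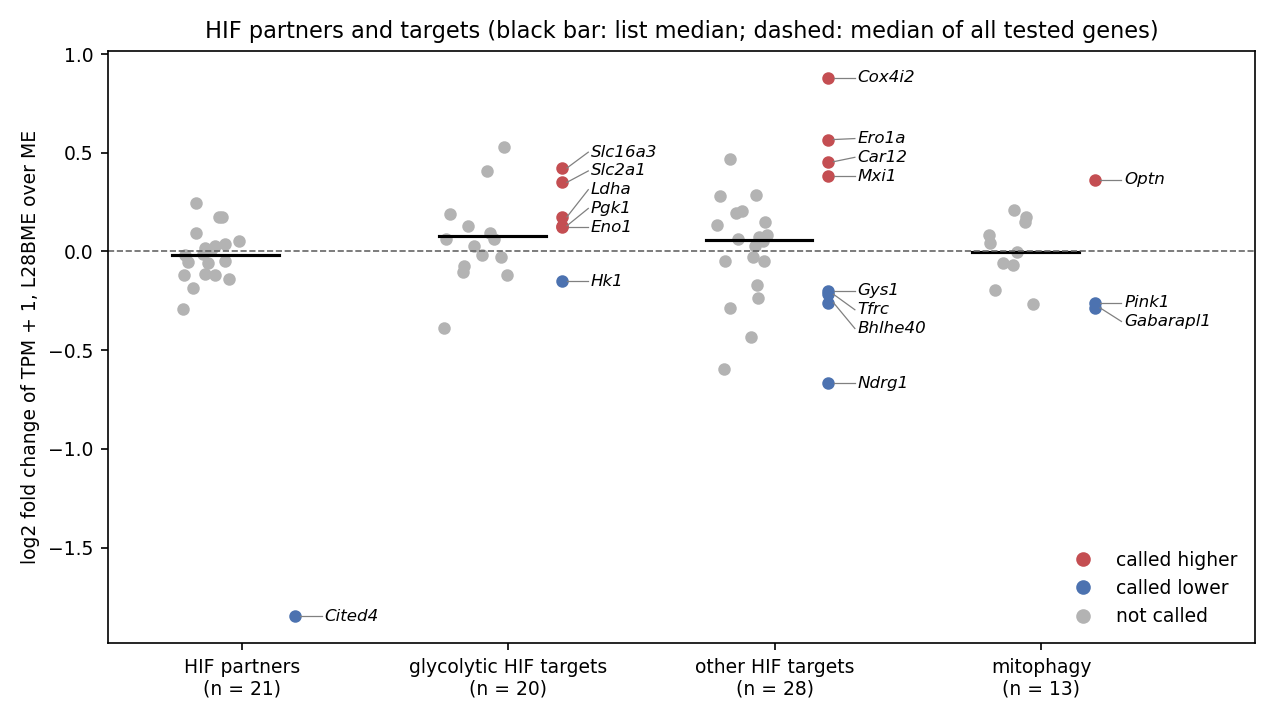
Log2 fold change of TPM + 1 between L28BME and ME (y axis) for the tested genes of 4 lists, with called genes in colour and named, the list median as a black bar and the median of all tested genes dashed. HIF targets lie on both sides of 0, with Cox4i2 at 0.88 and Ndrg1 at -0.67, and Cited4 at -1.85 stands apart among the partners.

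Genes that act beside Bnip3 in mitophagy, the removal of damaged mitochondria, had 1 of 13 tested members called higher and 2 lower. The called share was 23.1%, against 14.9% of all tested genes, and the median log2 fold change was -0.005. Gabarapl1, an autophagosome protein of the ATG8 family, fell from 139 ± 3.06 to 114 ± 2.78 TPM (limma adjusted p = 0.00447), and the kinase Pink1 from 46.2 ± 1.81 to 38.4 ± 0.997 TPM (adjusted p = 0.0185). The receptor Optn rose from 8.77 ± 0.422 to 11.6 ± 0.588 TPM (adjusted p = 0.0231). Bnip3l, the closest paralog of Bnip3, was at 59.7, 57.3 and 55.6 TPM in ME and 65.7, 62.5 and 63.1 TPM in L28BME. As for Bnip3, the groups did not overlap and the difference did not pass (log2 fold change 0.15, adjusted p = 0.0791). Phb2 and Fkbp8, the members not called with the highest mean over all 6 libraries, were at 338 ± 4.24 and 325 ± 11.1 TPM and at 186 ± 9.10 and 210.3 ± 17.6 TPM. Fkbp8 is also on the partner list and Bnip3l also on the list of other targets. Without 1 library, Gabarapl1 was called in 6 of 6 fits, Pink1 in 2 (lost without ME replicate 1 or 3 or L28BME replicate 1 or 2) and Optn in 1 (kept only without ME replicate 1), with adjusted p up to 0.0661 and 0.0763. Optn was also not called when low genes were kept in the fit.

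Lin28b was listed at 0 in the ME libraries and at 11.2, 11.7 and 11.9 TPM in L28BME. Of the sort markers, Kit was at 94.1 ± 15.7 and 79.2 ± 8.10 TPM and was not called, Cd48 fell from 297 ± 5.29 to 228 ± 2.24 TPM, Ly6a (Sca1) fell from 10.6 to 2.07 TPM and Slamf1 (CD150) was under 1 TPM in all libraries. Markers of mature neutrophils moved with the groups: 5 of 6 tested were called higher, against 8.28% of all tested genes. Their summed level was 209 to 218 TPM in ME and 531 to 552 TPM in L28BME, with Retnlg listed at 0 in ME. Of the 6 B-cell markers, the 2 that could be tested were called higher, against 8.28% of all tested genes. Cd79b was at 26.7 to 27.99 TPM in ME and at 54.5 to 59.2 TPM in L28BME. Ebf1 was at 1.09 to 1.77 and 2.48 to 3.31 TPM, while Ms4a1 was listed at 0 in ME. Of 4 tested erythroid markers none was called by limma, against 14.9% of all tested genes. An unadjusted limma p under 0.05 was reached by 3, all higher, and the share of all tested genes at that level was not counted. Erythroid sums were 10.9 to 19.7 and 20.97 to 34.02 TPM, with Alas2 at 0 throughout. Macrophage marker sums were 26.95 to 28.9 and 32.9 to 34.99 TPM, mostly Csf1r, with C1qa at 0. Csf1r was called higher and Adgre1 was not called (limma adjusted p = 0.0309 and 0.251). Summed T-cell markers, none of which could be tested, were 0 to 0.262 TPM in ME and 0.448 to 1.22 TPM in L28BME, mostly Cd3g, with Cd3e and Cd8a at 0. Endothelial sums, nearly all Pecam1, were 163 to 165 and 111 to 116 TPM. Stromal sums, nearly all Pdgfrb, were 21.7 to 23.3 and 27.04 to 28.8 TPM, with Cxcl12 and Pdgfra at 0. Pecam1 was called lower and Pdgfrb higher (limma adjusted p = 4.63e-04 and 0.0204). The mitochondrial genome's transcripts took 4.12 to 4.35% of ME TPM and 4.49 to 4.85% of L28BME TPM, and 13215 to 13288 genes per library reached 1 TPM. The part of these shifts in the changes of Hif3a, Hif1an, Egln3 and the targets was not tested, and in bulk RNA fewer cells of a type and less RNA per cell cannot be told apart.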

How the data were processed

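RNA of 6 GMLP libraries, 3 per group, was sequenced after TruSeq Stranded mRNA preparation. The submitters' processing notes name HISAT2, StringTie, bcl2fastq, DESeq2 and the build GRCm38, without versions or a strand setting. The authors deposited TPM per gene, so depth is unknown and no count model or counting interval was used. Values of 55471 gene IDs were analysed as log2(TPM + 1) for the 13348 genes that reached 1 TPM in 3 or more libraries, with limma 3.58.1 (R 4.3.3, intensity trend, two-sided, Benjamini-Hochberg over these genes). The procedure was tested on simulated data. Shares were compared by exact permutation. The members and gene lists were chosen with earlier results of these data known, and no p is adjusted over a list. Named are all members and, per list, called genes (up to 5 per direction) and the 2 uncalled ones with the highest mean TPM over all libraries; Cul2, Elob, Eloc, Vegfa, Adm, Ndufa4l2, Arnt2, Plod2, Slc2a3 and Bnip3l were added after their values were seen. Ero1a was matched by its NCBI gene ID, and Ahsp was not matched. Positions and UTRs came from GENCODE M21 and sequences from it and RefSeq (Python 3.11.15, pandas 2.3.3, matplotlib 3.10.9). The alternatives changed the pseudocount, the filter, the scaling or a limma option, added a replicate term, summed overlapping gene models or left out 1 library.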

Additional observations from a re-analysis of the deposited data

How the results depend on the processing

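The calls of Hif3a, Hif1an and Egln3 and the uncalled state of the other tested members held under all alternatives run, except that Hif3a was not tested at a minimum of 5 TPM, where 1 member was called higher, and that Vhl was called lower without L28BME replicate 1. Leaving out 1 library, with the tested genes kept as chosen from all libraries, gave 2 members higher throughout and 1 to 2 lower. Over all genes, 617 to 693 were then called higher and 461 to 582 lower, against 1105 and 881 with all libraries. Glycolytic HIF targets called higher then numbered 0 to 2, those called lower 0 to 1, and other HIF targets called lower 2 to 4. With no filter on low values, 881 of all genes were called higher and 698 lower, and with no intensity trend 978 and 785. In each of these fits 1 glycolytic target was called higher, and with no intensity trend 0 were called lower. Fits without 1 library have fewer samples and the fit with no filter tests more genes, and beyond that the cause was not tested. Equal replicate numbers did not go with shared deviations (correlations of -0.03, -0.07 and -0.05 for the same numbers). With replicate number as a block, 548 genes were called higher and 400 lower, 0 glycolytic targets higher and 0 lower, and 2 other targets lower. It also ended the calls of Pink1 and Optn, leaving 0 mitophagy genes higher and 1 lower, while the block changed no member's call. The difference in the Hif1a share, -4.86 percentage points, was between -5.30 and -4.36 without any 1 library. Without counts, the precision of values near 0, such as Hif3a in ME and Epas1, cannot be given.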
